A study of Mus musculus with 11 samples.

Results

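Replication of the genome in S phase rests on a set of proteins that license, fire and copy the origins, and 50 genes of this machinery were followed in colonic epithelial cells. The genes were taken by symbol and function (licensing, helicase, polymerases, nucleotide supply and S phase regulators). The rule used no values, but earlier results of these data were known when the genes were chosen. All 50 were among the 52550 genes of the count table, and all 50 were among the 15044 genes with enough reads to be tested. RNA was measured by RNA-Seq in 6 FFD mice, whose diet held no cellulose, and 5 CD mice, whose diet contained it. All 11 mice were of the C57BL/6 strain, lacked Rag1 (RAG1 KO) and therefore mature T and B lymphocytes, spent 4 weeks on the diet, and then drank dextran sulfate sodium (DSS), which injures the colonic epithelium, for 5 days. No mice without DSS were sequenced in this comparison, so the values contrast the diets within inflamed colons only. The paper reports that RAG KO mice on the cellulose diet resisted colitis better than those without cellulose. The severity of colitis therefore cannot be told apart from the diet. The sample names carry a 2 for every FFD library and a 1 for every CD library, and what this number stands for is not given, so it cannot be told apart from the diet. Age was not given in the labels.

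In G1, the origin recognition complex together with Cdc6 and Cdt1 loads the ring of Mcm2 to Mcm7 onto DNA, which licenses an origin. Cyclin-dependent kinases and Cdc7 with Dbf4 then recruit Cdc45 and the GINS proteins, which turn the ring into the active helicase, and polymerases, the clamp Pcna and its loader copy the strands behind it. In the colon this takes place mainly in the transit-amplifying cells of the lower crypt, and many of the genes are known targets of E2F transcription factors, which are released as cells pass into S phase.

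To show where such a motif lies, the start sites were searched for its letters, and stretches of promoter that hold them are printed for members described below. The motif was searched as TTTCCCGC or TTTGGCGC or TTTGCCGC or TTTCGCGC on both strands, with overlaps allowed, in the 250 bases before each start (RefSeq, GRCm38.p6). Of the members, 40 matched an entry by symbol. Gins1, Gins2, Gins4, Tipin, Pole, Rfc2, Gmnn, Ccne2, Mcm4 and Prim2 did not. The letters stood before the start of 10 of the 40 genes (25%), namely Mcm5, Mcm6, Mcm7, Cdc6, Orc1, Gins3, Pola1, Rfc3, Uhrf1 and Dnmt1, against 399 of 11053 tested genes with an entry (3.61%). Counted by promoter, the shares were 20% of the members' 50 promoters against 2.98% of 14145 promoters of tested genes and 1.86% of all 32851 promoters. The pentamer CCAAT, read on both strands, was more common in general, before 62.5% of the members' genes and 40.4% of tested genes. A match describes the letters alone, and E2f2 held none of the E2F letters in this window. A RefSeq start can lie inside the gene as annotated by GENCODE, and some genes had more than 1 start. The matches of Uhrf1, Dnmt1, Mcm7, Cdc6, Orc1, Gins3 and Rfc3 lay within the annotated gene. Uhrf1 had 2 starts, and its match and stretch belong to the downstream one, while the upstream one had no match. The following stretches run 5′ to 3′ along the gene's own strand, with the E2F letters of either orientation in capitals.
Uhrf1 (chr17:56304108-56304187, plus strand), 205 to 126 bases before the start, with 1 match:
Uhrf1: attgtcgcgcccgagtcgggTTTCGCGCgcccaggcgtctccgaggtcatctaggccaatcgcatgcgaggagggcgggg
Mcm6 (chr1:128359737-128359835, minus strand), 130 to 32 bases before the start, with 3 matches, of which 2 overlap:
Mcm6: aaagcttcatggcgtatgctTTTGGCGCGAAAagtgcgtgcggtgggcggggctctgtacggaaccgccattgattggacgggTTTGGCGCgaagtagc
Cdc6 (chr11:98907993-98908072, plus strand), 158 to 79 bases before the start, with 1 match:
Cdc6: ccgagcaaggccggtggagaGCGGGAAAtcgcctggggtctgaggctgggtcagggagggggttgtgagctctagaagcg
Pola1 (chrX:93632234-93632313, minus strand), 158 to 79 bases before the start, with 1 match:
Pola1: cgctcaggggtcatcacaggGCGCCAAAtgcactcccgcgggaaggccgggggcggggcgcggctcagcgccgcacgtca

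The total count was 10374154 to 27973285 reads in FFD mice and 20853535 to 28588266 reads in CD mice, and FFD mouse 4 had the fewest reads. Markers of epithelium were abundant in every library, with a summed level of 16739 to 21621 CPM in FFD mice and 14273 to 17148 CPM in CD mice. Markers of T and B cells, of which 2 of 10 (Ms4a1 and Cd3g) reached the filter, summed to 1.61 to 2.46 CPM in FFD mice and 1.68 to 2.45 CPM in CD mice. Rag1 itself still gave 138 reads over the FFD mice and 154 over the CD mice, and gene counts do not show from which part of the disrupted gene they come. Levels are given as CPM, the reads of a gene relative to the TMM-normalized total of its library, and log2 fold changes are FFD over CD, so that a negative value means a lower level in FFD mice. Genes were called at an adjusted p under 0.05 (edgeR quasi-likelihood test, Benjamini-Hochberg over all tested genes).

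In FFD mice 49 of the 50 replication genes were lower and 0 were higher, and E2f2 alone did not pass. DESeq2 and limma-voom also called 49 lower and 0 higher, and in edgeR 0 were higher at an unadjusted p under 0.05. Of all tested genes, 18.6% were called lower and 18.2% higher. In 36 of the 50 genes every FFD mouse lay below every CD mouse, against 9.59% of all tested genes. The members' median log2 fold change was -0.64, beside -0.03 over all tested genes. Without TMM the median of all tested genes moved by -0.15 and the split of calls shifted to 4863 lower and 1636 higher (2792 and 2740 with TMM), while 49 members were again lower, with a median of -0.79. Among the genes called, log2 fold changes lay between -0.85 (Mcm5) and -0.21 (Rfc1), which correspond to FFD levels of 0.553 to 0.866 times the CD level (median 0.634). Adjusted p-values of these genes were 0.0015 to 0.040, and each rested on 1267 to 43042 reads in total. Exons of 16 members overlap those of another annotated gene (among them Mcm7 with Ap4m1 and Cops6, Orc6 with Vps35, Gins2 with Gse1, Rfc2 with Lat2, Tk1 with Afmid and Ccne2 with Ints8), and the counting of reads they share was not stated. RNA was measured in bulk, so fewer cells in S phase and less RNA per cell cannot be told apart.

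**Figure D1:**
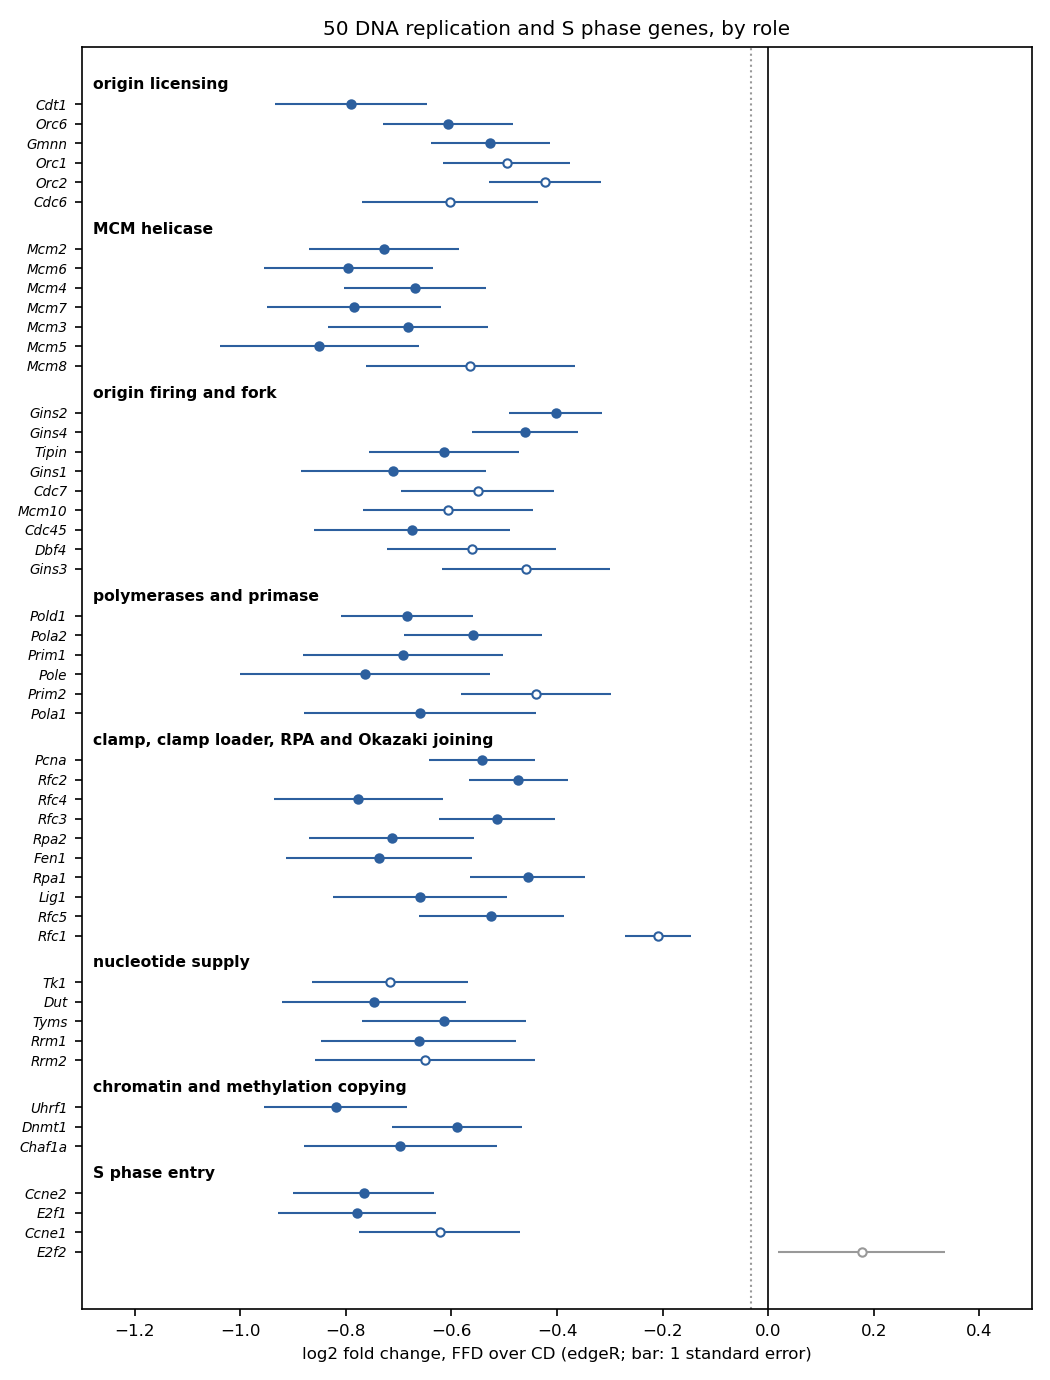
Log2 fold change (FFD over CD, horizontal axis) of each of the 50 genes, grouped by role, with bars of 1 standard error on either side from edgeR. All genes but E2f2 lie to the left of 0, between -0.85 and -0.21.

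Summed over the 50 genes, the level was 950.4 to 1672 CPM in FFD mice and 1981 to 2431 CPM in CD mice, so that the diets did not overlap. The genes took up 0.0866 to 0.175% of all reads in FFD mice and 0.208 to 0.261% in CD mice. Levels per kilobase of exon, which allow genes to be compared, were highest for Pcna (mean 67.7 CPM per kb over all mice), followed by Mcm6 (21.4), Rrm2 (18.8), Mcm5 (18) and Gmnn (17.6), and lowest for Pole (1.34). The replication RNA thus spanned a wide range of levels, and lower values in FFD mice were seen at both ends of it.

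The members that serve the first step, licensing, were lower throughout. All 6 of these genes passed (median log2 fold change -0.56, edgeR adjusted p = 0.0020 to 0.014), 3 of them without overlap. Licensing also uses subunits of the origin recognition complex that were not among the members and are described below. Of these, Orc5 was lower (-0.36), while Orc3 (0.07, edgeR adjusted p = 0.39) and Orc4 (-0.09, edgeR adjusted p = 0.20) did not pass. Cdt1, which brings the MCM ring to the origin, had 22.4, 23, 23.5, 15.5, 23.6 and 12.8 CPM in FFD mice 1 to 6, against 37, 31.7, 35.3, 37.5 and 33.9 CPM in CD mice 1 to 5. It averaged 20.2 ± 4.73 CPM in FFD mice (SD, n = 6) and 35.1 ± 2.38 CPM in CD mice (SD, n = 5), at a log2 fold change of -0.79 with SE 0.14 and edgeR adjusted p = 0.0020. Every FFD value of Cdt1 was below every CD value, and FFD mice 4 and 6 were the lowest. Orc6, a subunit of the origin recognition complex, had 14.1, 14.4, 15.9, 12.1, 16.4 and 9.42 CPM in FFD mice 1 to 6, against 20.5, 19, 22.6, 22.3 and 20.6 CPM in CD mice 1 to 5. Its means were 13.7 ± 2.61 CPM in FFD mice (SD, n = 6) and 21 ± 1.45 CPM in CD mice (SD, n = 5), at a log2 fold change of -0.61 with SE 0.12 and edgeR adjusted p = 0.0031, again without overlap. Geminin (Gmnn), the protein that binds and inhibits Cdt1, moved in the same direction as its target, at 15.8 to 25.2 CPM in FFD mice and 28.3 to 33.7 CPM in CD mice (log2 fold change -0.53). The loading ATPase Cdc6 was at 6.25 to 12.9 CPM in FFD mice and 12.7 to 17.8 CPM in CD mice (-0.60), and its diets overlapped only at the edge. The complex subunits Orc1 and Orc2 behaved alike in this respect. Orc1 was at 9.31 to 15.4 CPM in FFD mice and 15.3 to 18.2 CPM in CD mice (-0.50) and Orc2 at 16.7 to 25.4 CPM in FFD mice and 25.3 to 33 CPM in CD mice (-0.42).

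The members of the MCM family, which unwind the fork, were lower in FFD mice throughout. All 7 of these genes passed, with a median log2 fold change of -0.73, and 6 did not overlap between the diets. Mcm9, a gene of the family that was not among the members, did not pass (log2 fold change 0.12, edgeR adjusted p = 0.31). Mcm2 to Mcm7 form the ring and are needed in equal number, and their mean levels were between 8.37 and 21.4 CPM per kb. Mcm2 had 48, 48.2, 56.1, 39.8, 49.4 and 27.1 CPM in FFD mice 1 to 6, against 75.7, 64.4, 76, 80.2 and 75.5 CPM in CD mice 1 to 5. It averaged 44.8 ± 10.1 CPM in FFD mice (SD, n = 6) and 74.4 ± 5.92 CPM in CD mice (SD, n = 5), at a log2 fold change of -0.73 with SE 0.14 and edgeR adjusted p = 0.0025. Mcm6 had 85.5, 83.8, 91, 69.1, 78.4 and 40.6 CPM in FFD mice 1 to 6, against 141, 116, 134, 139.6 and 119 CPM in CD mice 1 to 5. The lowest CD mouse of Mcm6 was thus above the highest FFD mouse, and FFD mouse 6 was at less than any other mouse. Its means were 74.7 ± 18.3 CPM in FFD mice (SD, n = 6) and 129.96 ± 11.6 CPM in CD mice (SD, n = 5), at a log2 fold change of -0.80 with SE 0.16 and edgeR adjusted p = 0.0029. FFD mouse 6 was also the lowest mouse in each of the other ring subunits. Mcm5 was at 25.4 to 64.6 CPM in FFD mice and 83.2 to 106 CPM in CD mice (log2 fold change -0.85), and Mcm7 at 29.8 to 62.9 CPM in FFD mice and 71.6 to 99.997 CPM in CD mice (-0.79). Mcm3 was at 24.5 to 51.3 CPM in FFD mice and 58.9 to 75.2 CPM in CD mice (-0.68). Mcm4 was at 23.3 to 44.6 CPM in FFD mice and 52.8 to 66.8 CPM in CD mice (-0.67). Mcm8, a helicase relative outside the ring that serves in repair, was at 2.90 to 7.69 CPM in FFD mice and 6.95 to 10.2 CPM in CD mice (-0.56, edgeR adjusted p = 0.040). This call was lost when any 1 of 7 mice was left out (3 of the CD group, numbered 1, 3 and 4, and 4 of the FFD group, numbered 2 to 5).

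**Figure D2:**
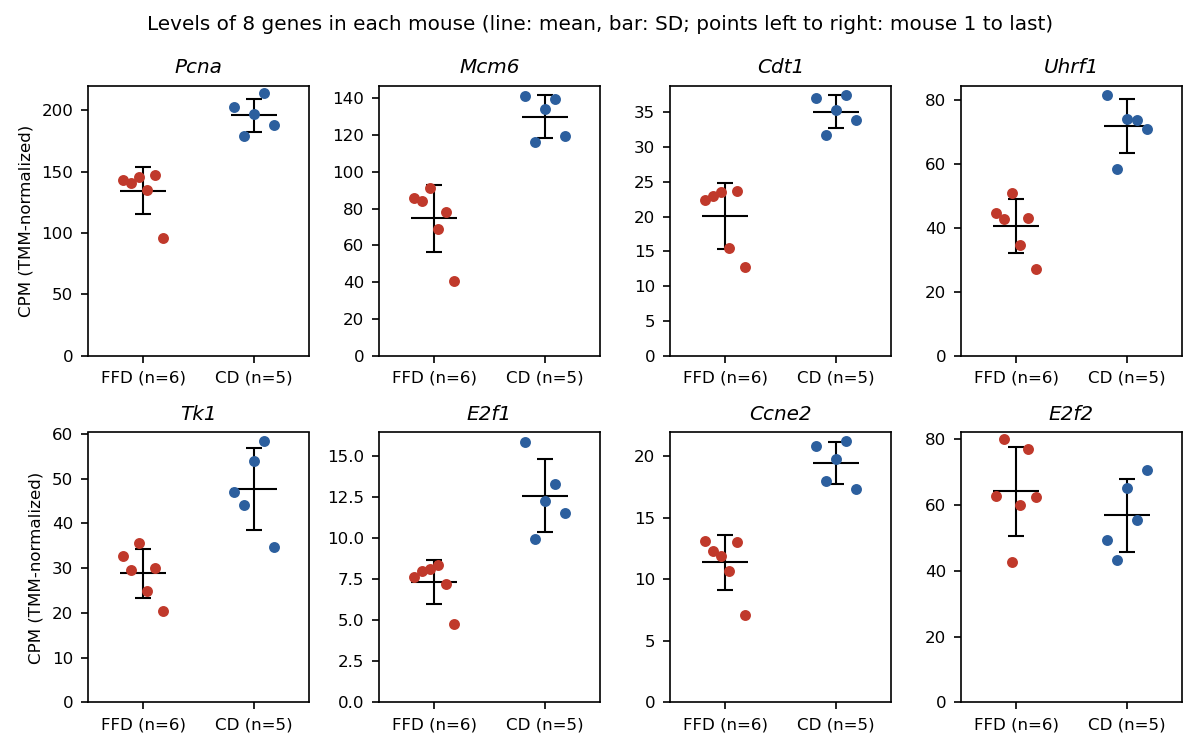
Levels (CPM) of 8 members in each mouse, FFD mice left and CD mice right in each panel, with a point per mouse and the mean with its SD as a bar. For genes such as Cdt1, Mcm6 and Pcna the FFD points lie below all CD points, and those of E2f2 are mixed.

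Firing of the licensed origin requires a kinase and the assembly of the active helicase. All 9 genes of this group were lower in FFD mice (median -0.56, edgeR adjusted p = 0.0042 to 0.038), 5 of them without overlap. Gins2, a subunit of the GINS complex, had 25.3, 29.4, 26.3, 27.9, 30.9 and 22.2 CPM in FFD mice 1 to 6, against 35.1, 33.6, 37.9, 39.7 and 32.2 CPM in CD mice 1 to 5. Its means were 27 ± 3.08 CPM in FFD mice (SD, n = 6) and 35.7 ± 3.06 CPM in CD mice (SD, n = 5), at a log2 fold change of -0.40 with SE 0.09 and edgeR adjusted p = 0.0042. Gins4 of the same complex had 18.5, 16.5, 18.4, 13.7, 16.6 and 15 CPM in FFD mice 1 to 6, against 21.7, 24, 22, 26.8 and 19.1 CPM in CD mice 1 to 5. It averaged 16.4 ± 1.88 CPM in FFD mice (SD, n = 6) and 22.7 ± 2.86 CPM in CD mice (SD, n = 5), at a log2 fold change of -0.46 with SE 0.10 and edgeR adjusted p = 0.0042. In Gins4 the lowest mouse was FFD mouse 4, not FFD mouse 6. The remaining subunits were Gins1 at 4.46 to 9.13 CPM in FFD mice and 9.97 to 14.3 CPM in CD mice (-0.71) and Gins3 at 3.18 to 5.58 CPM in FFD mice and 4.75 to 6.45 CPM in CD mice (-0.46), whose call was lost when any 1 of 8 mice was left out. Cdc45, which completes the helicase with the ring and GINS, was at 7.14 to 17.1 CPM in FFD mice and 18.1 to 26.7 CPM in CD mice (-0.68). The kinase Cdc7 was at 5.46 to 10.3 CPM in FFD mice and 8.86 to 12.5 CPM in CD mice (-0.55) and its activator Dbf4 at 15.7 to 32 CPM in FFD mice and 29.8 to 45.6 CPM in CD mice (-0.56). Mcm10, which activates the helicase, was at 13.3 to 25.6 CPM in FFD mice and 24.2 to 38.6 CPM in CD mice (-0.61), and Tipin, a factor that steadies the fork, at 7.81 to 13.9 CPM in FFD mice and 15.9 to 22.7 CPM in CD mice (-0.61). The diets overlapped in Cdc7, Dbf4, Mcm10 and Gins3 and not in the other genes of the group.

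Polymerases and primase, which start and extend the new strands, were lower as well. All 6 genes passed (median -0.67, edgeR adjusted p = 0.0021 to 0.032), and 5 did not overlap. Pold1, the catalytic subunit of polymerase delta, had 25.8, 24.5, 27.2, 20.5, 21.6 and 15.3 CPM in FFD mice 1 to 6, against 40.7, 33.7, 36.6, 38.3 and 32.1 CPM in CD mice 1 to 5. It averaged 22.5 ± 4.33 CPM in FFD mice (SD, n = 6) and 36.3 ± 3.46 CPM in CD mice (SD, n = 5), at a log2 fold change of -0.68 with SE 0.13 and edgeR adjusted p = 0.0021. Pola2, the regulatory subunit of polymerase alpha, had 22.9, 21.7, 23.5, 18.2, 23.5 and 14.2 CPM in FFD mice 1 to 6, against 34.8, 27.3, 34.5, 30.8 and 25.7 CPM in CD mice 1 to 5. Its means were 20.7 ± 3.76 CPM in FFD mice (SD, n = 6) and 30.6 ± 4.14 CPM in CD mice (SD, n = 5), at a log2 fold change of -0.56 with SE 0.13 and edgeR adjusted p = 0.0060. Both genes separated the diets. Pola1, the catalytic subunit of polymerase alpha, was at 6.02 to 19.98 CPM in FFD mice and 20.9 to 28.2 CPM in CD mice (-0.66) and the primase subunit Prim1 at 7.47 to 19.8 CPM in FFD mice and 22.6 to 28.4 CPM in CD mice (-0.69). Prim2, the large subunit of primase, was at 8.98 to 16 CPM in FFD mice and 13.5 to 18 CPM in CD mice (-0.44) and was the gene of this group whose diets overlapped. Pole, which encodes the catalytic subunit of polymerase epsilon, was at 4.35 to 14.3 CPM in FFD mice and 15.7 to 25.7 CPM in CD mice (-0.76). The call of Pole was lost without CD mouse 1 or CD mouse 3, and those of Pola1 and Prim2 without these and some other mice.

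The sliding clamp and the proteins around it formed the largest group. All 10 genes passed (median -0.53, edgeR adjusted p = 0.0022 to 0.020), and 9 did not overlap. Pcna, the clamp that holds the polymerases on DNA, had 143, 141, 145, 135, 148 and 95.9 CPM in FFD mice 1 to 6, against 203, 179, 197, 214 and 188 CPM in CD mice 1 to 5. It averaged 135 ± 19.4 CPM in FFD mice (SD, n = 6) and 196 ± 13.4 CPM in CD mice (SD, n = 5), at a log2 fold change of -0.54 with SE 0.10 and edgeR adjusted p = 0.0022. Except for FFD mouse 6, the FFD values of Pcna were close to each other. Its processed copy Pcna-ps2 had 117 reads over all mice, against 43042 for Pcna. Rfc2, a subunit of the clamp loader, had 38.1, 36.6, 35.4, 31.1, 35 and 28.3 CPM in FFD mice 1 to 6, against 49.8, 45.1, 48.1, 54.7 and 39.3 CPM in CD mice 1 to 5. Its means were 34.1 ± 3.68 CPM in FFD mice (SD, n = 6) and 47.4 ± 5.72 CPM in CD mice (SD, n = 5), at a log2 fold change of -0.47 with SE 0.09 and edgeR adjusted p = 0.0028. Among the other loader subunits, Rfc4 was at 7.86 to 16 CPM in FFD mice and 20.6 to 25.5 CPM in CD mice (-0.78) and Rfc3 at 13.4 to 21.1 CPM in FFD mice and 23.4 to 27.8 CPM in CD mice (-0.51). Rfc5, a further small subunit, was at 23.8 to 41.5 CPM in FFD mice and 45.5 to 61.5 CPM in CD mice (-0.52). Rfc1, the large subunit specific to the replicative loader, differed least of the called genes, at 42.7 to 50.02 CPM in FFD mice and 49.5 to 59.8 CPM in CD mice (-0.21, edgeR adjusted p = 0.020), and its call was lost without CD mouse 1 or CD mouse 3. Of the complex that coats single-stranded DNA, Rpa1 was at 34.2 to 53.4 CPM in FFD mice and 56.4 to 73.5 CPM in CD mice (-0.46). Its partner Rpa2 was at 9.31 to 20.5 CPM in FFD mice and 23.8 to 29.1 CPM in CD mice (-0.71). The flap nuclease Fen1, which trims Okazaki fragments, was at 17.5 to 37.4 CPM in FFD mice and 43.2 to 62.3 CPM in CD mice (-0.74), and the ligase Lig1, which joins them, at 22.1 to 50.2 CPM in FFD mice and 54.7 to 74.3 CPM in CD mice (-0.66).

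Whether the loader subunits changed unequally was examined within each mouse, with ratios chosen after the values were seen. The log2 ratio of Rfc1 over Rfc4 was 1.85 ± 0.39 in FFD mice (SD, n = 6) and 1.23 ± 0.16 in CD mice (SD, n = 5). This difference of 0.62 gave p = 0.0043 in a two-sided exact permutation test over 462 splits, the smallest p these group sizes allow, and 0.022 after adjustment over 5 ratios. Ratios of Rfc1 over Rfc2, Rfc3 and Rfc5 differed by 0.27, 0.33 and 0.34 (exact permutation p = 0.026, 0.0087 and 0.039, adjusted 0.032, 0.022 and 0.039). In these mice the mean ratio of Rfc1 to each small subunit was higher in FFD mice. Rfc1 was the called gene that differed least, and the adjustment over 5 ratios does not allow for that choice.

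All 5 members that supply deoxynucleotides were lower (median -0.66, edgeR adjusted p = 0.0033 to 0.027), and 3 did not overlap. Tk1, the thymidine kinase of cycling cells, had 32.7, 29.6, 35.5, 25, 29.97 and 20.4 CPM in FFD mice 1 to 6, against 47, 44, 53.9, 58.4 and 34.7 CPM in CD mice 1 to 5. It averaged 28.8 ± 5.44 CPM in FFD mice (SD, n = 6) and 47.6 ± 9.16 CPM in CD mice (SD, n = 5), at a log2 fold change of -0.72 with SE 0.15 and edgeR adjusted p = 0.0033. CD mouse 5 was the lowest CD mouse and within the FFD range. Dut, the dUTPase that keeps uracil out of DNA, had 33.4, 31.6, 35.8, 26.7, 32.5 and 14.8 CPM in FFD mice 1 to 6, against 47.3, 44.4, 54.2, 56 and 43.6 CPM in CD mice 1 to 5. Its means were 29.1 ± 7.66 CPM in FFD mice (SD, n = 6) and 49.1 ± 5.69 CPM in CD mice (SD, n = 5), at a log2 fold change of -0.75 with SE 0.17 and edgeR adjusted p = 0.0058, and its diets did not overlap. Thymidylate synthase (Tyms) was at 18.5 to 39.3 CPM in FFD mice and 43.4 to 58.6 CPM in CD mice (-0.61). Of ribonucleotide reductase, the large subunit Rrm1 was at 35.6 to 87.1 CPM in FFD mice and 95.9 to 130.4 CPM in CD mice (-0.66) and the small subunit Rrm2, which is made in S phase, at 19.9 to 54.5 CPM in FFD mice and 52.5 to 80.7 CPM in CD mice (-0.65). The call of Rrm2 was lost without FFD mouse 4, and also without CD mouse 3 or 4.

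The copying of chromatin and of DNA methylation behind the fork was represented by 3 genes, which all passed and separated the diets (median -0.70). Uhrf1, which recognises hemimethylated DNA, had 44.7, 42.6, 50.7, 34.6, 43.2 and 27 CPM in FFD mice 1 to 6, against 81.6, 58.3, 74, 73.6 and 71 CPM in CD mice 1 to 5. It averaged 40.5 ± 8.38 CPM in FFD mice (SD, n = 6) and 71.7 ± 8.47 CPM in CD mice (SD, n = 5), at a log2 fold change of -0.82 with SE 0.14 and edgeR adjusted p = 0.0015, the smallest p among the 50 genes. Dnmt1, the maintenance methyltransferase that Uhrf1 recruits, had 57.2, 57.3, 59.9, 54, 58.4 and 33.7 CPM in FFD mice 1 to 6, against 89.7, 75.1, 83, 81.8 and 72.7 CPM in CD mice 1 to 5. Its means were 53.4 ± 9.83 CPM in FFD mice (SD, n = 6) and 80.4 ± 6.75 CPM in CD mice (SD, n = 5), at a log2 fold change of -0.59 with SE 0.12 and edgeR adjusted p = 0.0035. FFD mouse 6 was again far below the other FFD mice. Chaf1a, the large subunit of the histone chaperone CAF-1, was at 9.14 to 22.3 CPM in FFD mice and 23 to 31.8 CPM in CD mice (-0.70).

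Regulators of S phase entry were the group in which the genes parted. Ccne2, a cyclin E that activates Cdk2, had 13.1, 12.3, 11.9, 10.7, 13.1 and 7.14 CPM in FFD mice 1 to 6, against 20.9, 18, 19.8, 21.2 and 17.4 CPM in CD mice 1 to 5. It averaged 11.4 ± 2.26 CPM in FFD mice (SD, n = 6) and 19.4 ± 1.71 CPM in CD mice (SD, n = 5), at a log2 fold change of -0.77 with SE 0.13 and edgeR adjusted p = 0.0018. The other cyclin E, Ccne1, was at 7.03 to 13.5 CPM in FFD mice and 13.3 to 18.9 CPM in CD mice (-0.62). E2f1 (chr2:154559407-154569892, minus strand, GRCm38), a transcription factor that activates replication genes, had 7.60, 7.96, 8.13, 8.36, 7.17 and 4.74 CPM in FFD mice 1 to 6, against 15.8, 9.94, 12.2, 13.3 and 11.5 CPM in CD mice 1 to 5. Its means were 7.33 ± 1.33 CPM in FFD mice (SD, n = 6) and 12.6 ± 2.20 CPM in CD mice (SD, n = 5), at a log2 fold change of -0.78 with SE 0.15 and edgeR adjusted p = 0.0025, and its diets did not overlap. E2f2 (chr4:136172394-136196057, plus strand, GRCm38), a related activator, had 62.9, 80.2, 42.6, 60.1, 77.1 and 62.5 CPM in FFD mice 1 to 6, against 49.4, 43.3, 65.3, 55.6 and 70.7 CPM in CD mice 1 to 5. The diets were mixed throughout, with FFD mouse 3 the lowest and FFD mouse 2 the highest of all mice. E2f2 averaged 64.2 ± 13.5 CPM in FFD mice (SD, n = 6) and 56.9 ± 11.2 CPM in CD mice (SD, n = 5), at a log2 fold change of 0.18 with SE 0.16 and edgeR adjusted p = 0.40. Over 19 alternative fits its log2 fold change was 0.01 to 0.28, with adjusted p = 0.10 to 0.95 from edgeR, DESeq2 and limma. The log2 ratio of E2f2 over E2f1, again chosen after the values were seen, was 3.13 ± 0.47 in FFD mice (SD, n = 6) and 2.17 ± 0.37 in CD mice (SD, n = 5), a difference of 0.95 (two-sided exact permutation p = 0.013, adjusted 0.022 over the same 5 ratios). The adjustment does not allow for the choice of E2f2 as the gene that did not pass. Per kilobase, E2f2 RNA was more abundant than E2f1 RNA, with means of 12.5 and 3.08 CPM per kb over all mice.

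The mice of a diet were not alike. FFD mouse 6 was the lowest of all 11 mice in 47 of the 50 genes, and FFD mouse 4 was the second lowest FFD mouse in 42. On the mean log2 level of the 50 genes relative to the CD mean, FFD mouse 6 was at -1.27, FFD mouse 4 at -0.77 and the other FFD mice at -0.51 to -0.41. CD mice were at -0.18 to 0.13, and in each gene the lowest CD mouse was CD mouse 2 or CD mouse 5. The members varied more among FFD mice than the tested genes did, with a median coefficient of variation of 22.2% beside 14.7% for all tested genes. Without FFD mouse 6 these were 12% and 13.2%, and among CD mice 11.9% and 12.1%. Leaving out FFD mouse 6, 48 genes were called lower (Gins3 lost its call) and the median log2 fold change was -0.52. The 36 genes without overlap stayed so, which was fixed in advance, since leaving out a mouse cannot create an overlap.

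**Figure D3:**
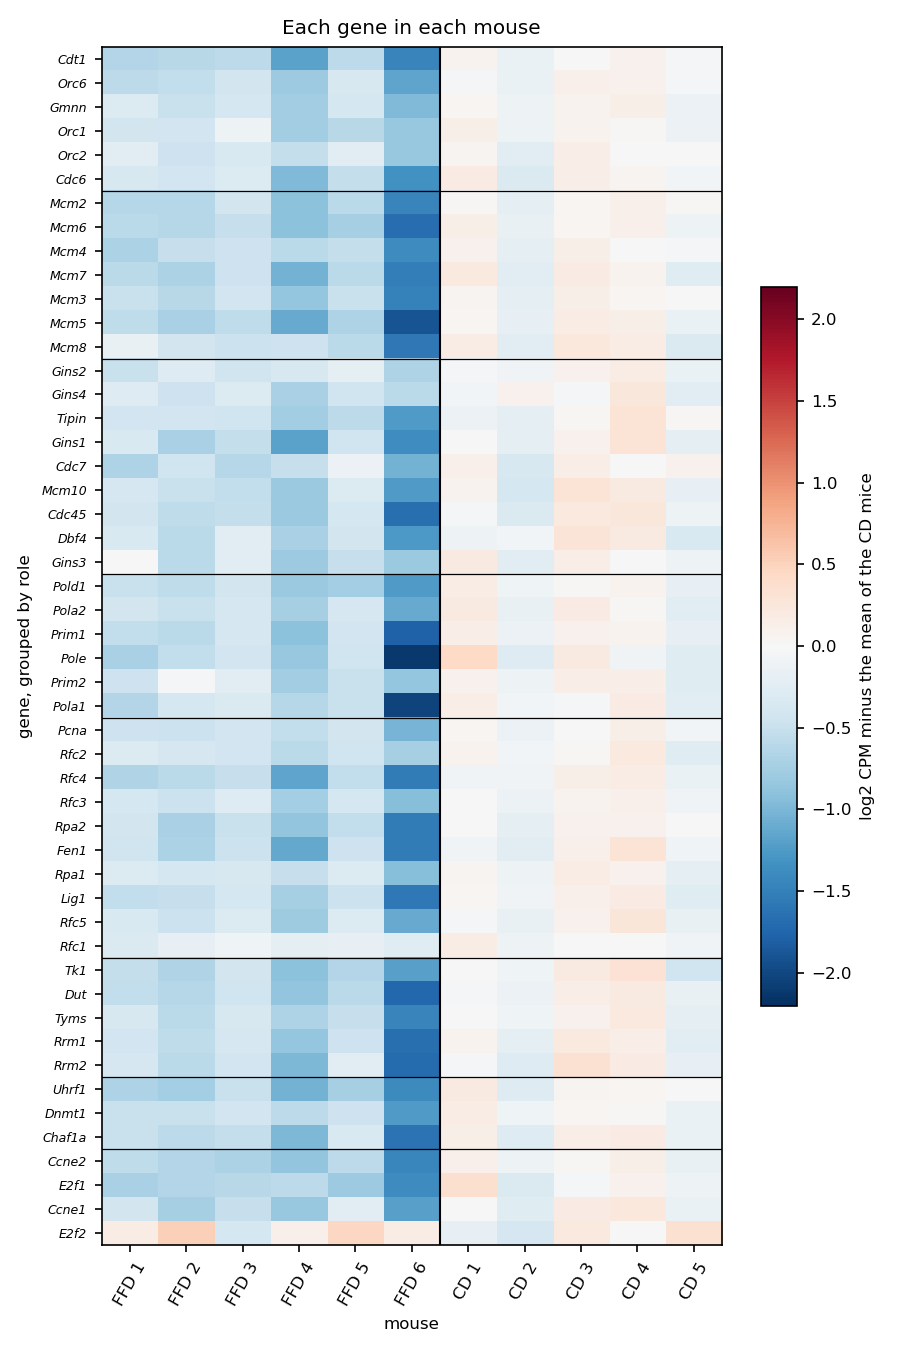
Level of each of the 50 genes in each mouse as log2 CPM minus the mean of the CD mice (colour scale, blue lower and red higher), FFD mice in the left columns and CD mice in the right columns, genes ordered by role. The FFD columns are blue in nearly all rows, with FFD mouse 6 the darkest, and E2f2 stands out as a row of mixed colour.

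Other measures moved with the diets beside the replication genes. Ribosomal protein genes took 2.88 to 4.47% of reads in FFD mice, lowest in FFD mouse 6, and 4.65 to 6.34% in CD mice, and mitochondrial genes 4.97 to 6.42% in FFD mice and 4.04 to 6.27% in CD mice. Of 10 markers of mature colonocytes, 6 were higher in FFD mice and none lower, and their summed level was 17310.2 to 29869 CPM in FFD mice and 10457 to 14649 CPM in CD mice, highest in FFD mouse 6. Among them, the bacteria-binding Lypd8 (log2 fold change 1.18), the mucin Muc13 (0.99) and the chloride exchanger Slc26a3 (1.34) had the smallest p. Of 9 tested markers of crypt base stem cells, 6 were lower and none higher, with a sum of 229 to 281 CPM in FFD mice and 306 to 369 CPM in CD mice. These were led by the Wnt targets Axin2 (-1.49) and Znrf3 (-0.75) and by Smoc2 (-2.14). Of the 10 epithelial markers, 8 were higher and none lower, with Cdh1 (0.51), Vil1 (0.63) and Lgals4 (0.45) first. In these 3 lists, DESeq2, limma-voom and an unadjusted p under 0.05 in edgeR likewise gave 0 genes in the opposite direction. Without TMM, 3 of the 10 epithelial markers were called higher.

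Markers of other cell types were at low levels next to the epithelial ones. The neutrophil markers summed to 66.7 to 225 CPM in FFD mice and 24 to 64.9 CPM in CD mice, nearly all of it Ly6g, which averaged 153 ± 64.1 CPM in FFD mice (SD, n = 6) and 33.5 ± 16.3 CPM in CD mice (SD, n = 5) (log2 fold change 2.20, called higher). S100a8 (1.51) was also called higher, at 2.46 ± 1.70 CPM in FFD mice (SD, n = 6) and 0.877 ± 0.495 CPM in CD mice (SD, n = 5). S100a9 (0.88, means of 2.59 CPM in FFD mice and 1.42 CPM in CD mice) and the receptor Csf3r (0.20, 0.795 CPM in FFD mice and 0.699 CPM in CD mice) did not pass, and Mpo, Elane and Cxcr2, with 9, 7 and 73 reads over all mice, were too low to test. The macrophage and monocyte markers summed to 20.4 to 32.4 CPM in FFD mice and 15.5 to 22 CPM in CD mice, with Mrc1 (1.54) and C1qb (0.84) called higher and Lyz2 next by p. Pan-leukocyte markers, of which Ptprc (0.40) was called higher and Laptm5 (0.44) and Coro1a (0.03) did not pass, summed to 12.5 to 18.3 CPM in FFD mice and 10.001 to 14.1 CPM in CD mice. Markers of innate lymphoid and NK cells, among them Gata3 (0.91) and Gzma (-0.53), which did not pass, summed to 28.7 to 52.2 CPM in FFD mice and 24.3 to 36.2 CPM in CD mice. Of the 6 tested in this list, 1 was called higher and none lower. Markers of fibroblasts, muscle and endothelium (Vwf, Acta2 and Pecam1 were testable, none called) summed to 3.52 to 6.31 CPM in FFD mice and 5.08 to 7.39 CPM in CD mice. Those of red blood cells, of which Hba-a2 (1.22) was called higher and Hbb-bs (1.10) did not pass, summed to 0.704 to 7.76 CPM in FFD mice and 1.21 to 2.95 CPM in CD mice. The part that any of these levels had in the lower replication RNA was not tested.

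A further 48 replication genes, listed from general knowledge but with earlier results of these data known, were examined in the same fit. Of these, 32 were lower, none was higher and 16 did not pass in edgeR (0 higher with DESeq2 and limma-voom, 1 at an unadjusted p under 0.05, median -0.51), and 23 did not overlap. The smallest p belonged to Cdk2, the kinase partner of cyclin E (17.6 to 23.5 CPM in FFD mice and 27.1 to 34.7 CPM in CD mice, log2 fold change -0.51), to the polymerase delta subunit Pold2 (36.6 to 57.5 CPM in FFD mice and 69.3 to 88 CPM in CD mice, -0.65) and to the polymerase epsilon subunit Pole3 (25.9 to 38.2 CPM in FFD mice and 43.9 to 52.3 CPM in CD mice, -0.50). Subunits of single complexes were then compared, which were chosen after their values were seen. Of the origin recognition complex, Orc5 was lower at 10.1 to 15.3 CPM in FFD mice and 15.7 to 18.1 CPM in CD mice (-0.36). Orc3 was at 30.3 to 37.1 CPM in FFD mice and 29.4 to 34.6 CPM in CD mice (0.07, edgeR adjusted p = 0.39) and Orc4 at 28.4 to 32.6 CPM in FFD mice and 31.3 to 32.9 CPM in CD mice (-0.09, edgeR adjusted p = 0.20). Of polymerase delta, Pold3 was at 42.4 to 54.6 CPM in FFD mice and 45.9 to 53.9 CPM in CD mice (-0.01, edgeR adjusted p = 0.94) and Pold4 at 13.4 to 16.5 CPM in FFD mice and 11 to 14.7 CPM in CD mice (0.18, edgeR adjusted p = 0.14), beside Pold1 and Pold2, which were lower. Rpa3, the small subunit of the single-strand binding complex, was lower like Rpa1 and Rpa2 (19.3 to 29.9 CPM in FFD mice and 30.8 to 38.6 CPM in CD mice, -0.43). Differences between subunits of these complexes were not tested.

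**Figure D4:**
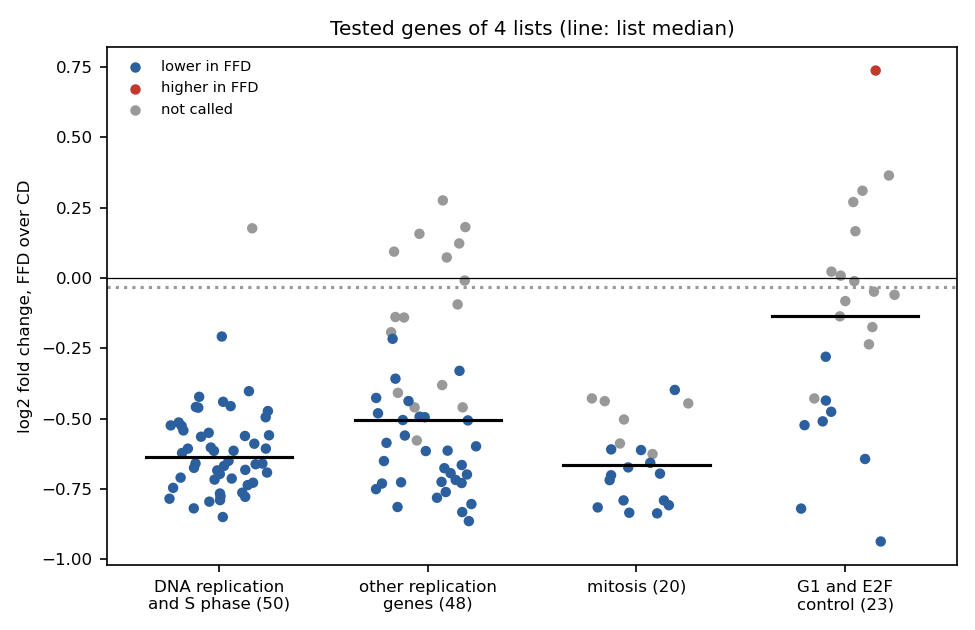
Log2 fold changes (FFD over CD) of the genes of each list, a point per gene, with the median marked. The 50 replication genes (median -0.64) and the 20 mitosis genes (median -0.67) lie almost wholly below 0, while the G1 genes (median -0.14) lie on both sides.

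Before S phase, the G1 cyclins, CDKs and regulators of E2F were split. Of 23 tested genes (Cdkn2a had 15 reads and was not tested), 8 were lower, 1 was higher and 14 did not pass (median -0.14). Cdk4, the kinase that starts the release of E2F, had 76.3, 69.1, 84.9, 59.7, 66.8 and 42.8 CPM in FFD mice 1 to 6, against 120.5, 131, 137, 137 and 114 CPM in CD mice 1 to 5 (log2 fold change of -0.94 with SE 0.14 and edgeR adjusted p = 0.0011), with no overlap. E2f3, another activating E2F, was at 14.6 to 17.5 CPM in FFD mice and 19.1 to 24.4 CPM in CD mice (-0.48) and the growth regulator Myc at 24.9 to 47 CPM in FFD mice and 52.8 to 75.7 CPM in CD mice (-0.82), both lower and without overlap. Cdkn1a, which encodes the CDK inhibitor p21, was the gene called higher by edgeR and limma-voom, while DESeq2 called 4 genes of the list higher. It had 148, 206, 120.1, 168, 239 and 164 CPM in FFD mice 1 to 6, against 103, 101, 101, 93.4 and 124 CPM in CD mice 1 to 5 (log2 fold change of 0.74 with SE 0.15 and edgeR adjusted p = 0.0030), and FFD mouse 3 lay within the CD range. The list's summed level overlapped between the diets, at 1657 to 1927 CPM in FFD mice and 1616 to 1893 CPM in CD mice.

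After S phase, 14 of 20 genes of mitosis were lower, none was higher and 6 did not pass in edgeR (0 higher at an unadjusted p under 0.05 and by DESeq2 and limma-voom), with all 20 log2 fold changes negative (median -0.67). In none of the 20 were the diets without overlap. The smallest p belonged to survivin (Birc5), at 20.7 to 47.3 CPM in FFD mice and 46.5 to 85.2 CPM in CD mice (-0.82), to the kinase Plk1, at 62.2 to 89.1 CPM in FFD mice and 79.8 to 109 CPM in CD mice (-0.40), and to the anaphase activator Cdc20, at 23.5 to 59.7 CPM in FFD mice and 52.4 to 100.4 CPM in CD mice (-0.79). The sum over the list was 409.5 to 1044 CPM in FFD mice and 867 to 1464 CPM in CD mice, and CD mouse 5 was the CD mouse within the FFD range. On the mean log2 scale CD mouse 5 was at -0.49 for mitosis and -0.13 for the replication genes, both relative to the CD mean. The count of 14 mitosis genes fell to 2 without CD mouse 3 or CD mouse 4, to 8 without FFD mouse 4 and to 9 without CD mouse 1. Over all tested genes the count called lower also fell, from 2792 to 1983 without CD mouse 3 and 2175 without CD mouse 4. It was 2412 without FFD mouse 4 and 2348 without CD mouse 1. Of the 50 replication genes, 42 were called lower without CD mouse 3, 44 without CD mouse 4, 44 without FFD mouse 4 and 43 without CD mouse 1. Whether the replication and mitosis genes differed in their response was not tested.

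**Figure D5:**
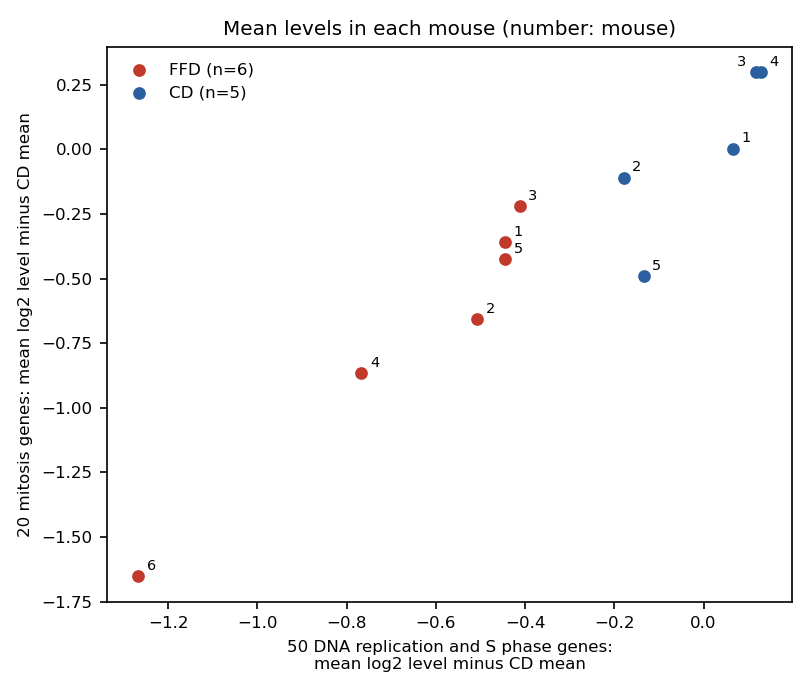
Mean log2 level of the 50 replication genes (horizontal axis) and of the 20 mitosis genes (vertical axis) in each mouse, both relative to the CD mean, with the mouse number beside each point. FFD mice lie left of all CD mice on the horizontal axis, and CD mouse 5 shares the vertical range of the FFD mice.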

How the data were processed

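Epithelial cells were shaken from the colon and each library held the RNA of 1 mouse. Reads were trimmed and aligned to the GRCm38 genome in the Qiagen CLC Workbench, and the authors deposited raw counts of reads per gene. FastQC is listed in the submitters' processing notes, as are DESeq2 1.22.2 and R 3.5.1. Sources used here do not state the annotation release, the handling of reads with several map positions, or strand. Gene coordinates and exon lengths came from GENCODE M21 (GRCm38) and promoters from RefSeq (GRCm38.p6).

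The deposited counts were analysed in R 4.3.3 with edgeR 4.0.16. Genes passed filterByExpr at a minimum count of 10 and a minimum total of 15, libraries were scaled by TMM, and diet alone was tested with the quasi-likelihood test at an adjusted p of 0.05. Replicates were separate mice (6 FFD, 5 CD), and no pair of mice of the same diet agreed within sampling noise (lowest chi-square over its degrees of freedom 11.1). Pairs across the diets were not checked. The members, lists and rules were chosen with earlier results of these data known. Values for every mouse are given for the 2 members with the smallest p per role and for any that did not pass. Of each other list, the 3 genes with the smallest p and any that passed in the opposite direction are named, except 1 gene that is not reported here. Alternatives were DESeq2 1.42.0, its size factors, no TMM, no filter, a strict filter (5 CPM in 5 mice), limma-voom (limma 3.58.1), robust dispersion, a replicate block and each mouse left out.

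The test was also run on simulated counts for FFD over CD with 15044 genes. Among 50 genes per size of change, 21 were recovered at a log2 fold of 0.5, 36 at 1, 44 at 1.5 and 48 at 2. Of 157 calls 8 were false, and 0 were made with none changed. Far fewer genes were changed than were called in the real counts, and each gene was drawn independently within a mouse. The numbers therefore do not measure recovery or error of the test on the real counts.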

Additional observations from a re-analysis of the deposited data

Results flagged for a closer look

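In 7 of the replication genes, FFD mouse 6 stood apart from the other FFD mice, its gap to the nearest of them being a large part of the range of the group (Dixon's criterion at the 95% level). The criterion was applied to 108 groups of mice, namely the 50 genes, Cdk4, Cdkn1a and 2 measures over all 50 genes (their sum and their mean log2 level) in each diet. Chance gives about 1 in 20, and 7 of the 108 groups met the criterion. The 2 measures over all 50 genes did not meet it. Pcna was at 95.9 CPM in FFD mouse 6 and at 135 to 148 CPM in the other FFD mice. Dnmt1 was at 33.7 CPM in FFD mouse 6 and at 54 to 59.9 CPM in the other FFD mice, and Pola1 at 6.02 CPM in FFD mouse 6 and at 15.8 to 19.98 CPM in the other FFD mice. E2f1 was at 4.74 CPM in FFD mouse 6 and at 7.17 to 8.36 CPM in the other FFD mice. Mcm4 was at 23.3 CPM in FFD mouse 6 and at 37.4 to 44.6 CPM in the other FFD mice. Pole was at 4.35 CPM in FFD mouse 6 and at 10.7 to 14.3 CPM in the other FFD mice, and Tyms at 18.5 CPM in FFD mouse 6 and at 31.5 to 39.3 CPM in the other FFD mice. Without FFD mouse 6 the log2 fold changes were -0.46 for Pcna, -0.49 for Dnmt1, -0.68 for E2f1, -0.49 for Pola1 and -0.60 for Pole, each still called lower.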

How the results depend on the processing

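Of the 50 replication genes, 42 were called lower in each of 19 alternative fits and 49 had a negative log2 fold change in each. With 1 mouse left out, 42 to 49 were lower, 0 were higher and the median log2 fold change was -0.68 to -0.52. Over the other settings 46 (replicate block) to 49 were lower. The further replication genes lower numbered 28 to 35 with 1 mouse left out and 30 to 41 (no TMM) otherwise. The G1 genes lower numbered 8, 5 to 8 with 1 mouse left out, and 5 with the replicate block. The mitosis genes lower numbered 14, 2 to 18 with 1 mouse left out, 10 with the block and 20 without TMM. Over all tested genes, 1983 to 2993 were called lower with 1 mouse left out. The cause of the changes in these counts was not tested. Mouse numbers did not pair the diets (correlations of same-numbered deviations -0.18, -0.28, 0.18, -0.26 and 0.23, where mice 3 and 5 correlated best with their own number). The block fit, in which FFD mouse 6 has no partner and adds nothing, called 1829 genes lower and 1953 higher, against 2792 and 2740 without it, and gave a members' median of -0.52. Genes that did not pass changed sign in some fits. Orc3 was at -0.0810 without TMM. Pold3 was at 0.00926 with DESeq2 size factors, 0.0117 with DESeq2, 0.0251 with the block and at -0.0472 to 0.0464 with 1 mouse left out. Gins3, the called member with the fewest reads (1267), was called in 9 of the 19 alternatives. Read number alone did not order the calls, as Cdc7 (2473 reads), Gins1 (2476) and E2f1 (2575) were called in all 19, Rfc1 (12871) in 15 and Rrm2 (13984) in 16.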
